A study of Rattus norvegicus with 6 samples.

Results

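The 10 genes described here carry or take up lipid: the apolipoprotein genes Apoe, Clu and Apod, the lipase gene Lpl, the receptor genes Lrp1, Vldlr and Cd36, and the fatty acid binding protein genes Fabp3, Fabp5 and Fabp7. They were chosen by symbol, and all 10 were found among the 37183 symbols of the table. RNA was sequenced from primary cultures of rat hippocampal astrocytes and hippocampal neurons, with 1 library for each of 6 groups. Astrocytes exposed to 200 nM insulin for 6 h or 12 h were compared with control astrocytes at 0 h, and neurons exposed to 200 nM insulin for 6 h or 12 h with control neurons at 0 h. The controls are called saline-treated in the titles and untreated elsewhere in the labels. Before treatment, all cultures were kept for 4 h in changed medium, which held 2% FBS and 5 mM glucose for astrocytes, and 1% insulin-free B27 without serum for neurons. Time after this change differed between the control and insulin libraries, so an effect of insulin cannot be told apart from one of time. The labels do not say how many animals or wells went into a library, and with 1 library a group there was no replicate error and no test.

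Apolipoproteins are the protein coat of lipoprotein particles. In the brain, astrocytes are known as the main source of apolipoprotein E, which they release with cholesterol and phospholipid. Neurons and glia take such particles up through endocytic receptors. Lipoprotein lipase frees fatty acids from the triglyceride of lipoproteins, and fatty acid binding proteins carry fatty acids inside the cell.

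Levels are given in FPKM, fragments per kilobase of transcript and 1000000 fragments, computed back from the deposited log2 values, so that genes can be compared per length. Over the symbols with a value, the median was 0.178 FPKM in each library, since the authors gave all libraries the same quantiles. The depth of the libraries is unknown. Of the 10 genes, 8 reached 1 FPKM in at least 1 library and 6 in all 6 libraries, whereas Apod and Cd36 stayed below 1 FPKM throughout. A gene entered a comparison with at least 1 FPKM in either library.

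The labelled cell types were set beside marker genes. The 12 astrocyte markers summed to between 55.3 and 62.6 FPKM in the 3 astrocyte-labelled libraries, and to between 349 and 388 FPKM in the 3 neuron-labelled libraries. At least 1 FPKM was reached by 6 or 7 of the 12 in astrocyte-labelled libraries and by 9 of the 12 in neuron-labelled libraries. The glutamate transporter gene Slc1a2, a marker of mature astrocytes, was at most 0.00196 FPKM in astrocyte-labelled libraries and between 0.301 and 0.353 FPKM in neuron-labelled ones. Fgfr3 stood the other way, at 22.1 to 31.0 FPKM against 3.70 to 4.47 FPKM, and the gap junction gene Gja1 was at 10.8 to 11.9 FPKM against 16.1 to 22.6 FPKM. The 13 neuron markers summed to between 3.98 and 5.21 FPKM in astrocyte-labelled libraries and to between 61.5 and 73.8 FPKM in neuron-labelled libraries, and the excitatory marker Slc17a7 was blank in the astrocyte-labelled libraries and at most 0.00378 FPKM in the neuron-labelled ones. Pericyte and smooth muscle markers summed to between 425 and 504 FPKM in astrocyte-labelled libraries, against 4.52 to 10.6 FPKM in neuron-labelled ones. Most of the astrocyte-labelled sum was Tagln, at 353 to 417 FPKM, followed by Acta2 at 47.4 to 68.2 FPKM. There Cnn1 was at 14.2 to 15.7 FPKM and Pdgfrb at 2.88 to 2.95 FPKM, whereas Myh11 and Rgs5 were at most 0.00875 and 0.00798 FPKM. Fibroblast markers summed to between 90.3 and 110 FPKM in astrocyte-labelled libraries, against 0.0697 to 0.249 FPKM in neuron-labelled ones. The astrocyte-labelled sum was mostly Col1a1, at 44.2 to 60.4 FPKM, Fn1 at 22.9 to 28.2 FPKM and Col3a1 at 17.1 to 24.8 FPKM. Lum and Dcn were at most 0.787 and 0.0738 FPKM there, and Col1a2 was not among the symbols. Oligodendrocyte markers summed to between 5.08 and 5.85 FPKM in astrocyte-labelled libraries, against 140 to 151 FPKM in neuron-labelled ones. Most of the neuron-labelled sum was Olig1, at 78.5 to 85.4 FPKM, Cnp at 29.1 to 36.4 FPKM and Olig2 at 21.5 to 25.9 FPKM. There Mbp was at 0.980 to 1.07 FPKM, Mag at 0.599 to 0.728 FPKM and Mobp at 0.127 to 0.242 FPKM. Mog stood the other way, at 2.01 to 2.21 FPKM in astrocyte-labelled libraries against 1.40 to 1.69 FPKM. The cultures are therefore called astrocyte-labelled and neuron-labelled. How far the makeup of the cultures enters the differences between them was not tested, and fewer cells of a type cannot be told apart from less RNA per cell.

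Apoe had the highest level of the 10 genes, in the neuron-labelled cultures. It was at 5.15 FPKM in control astrocyte-labelled cells, 5.37 FPKM at 6 h and 3.26 FPKM at 12 h. In the neuron-labelled libraries it was at 745 FPKM in control cells, 752 FPKM at 6 h and 832 FPKM at 12 h. All 3 neuron-labelled libraries lay far above all 3 astrocyte-labelled libraries, and the level was 145-fold, 140-fold and 255-fold higher in neuron-labelled cultures at 0 h, 6 h and 12 h. By rank from the highest, Apoe was number 1701, 1705 and 2615 among the symbols of the astrocyte-labelled libraries at 0, 6 and 12 h. In the neuron-labelled libraries it was number 18, 19 and 18.

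Clu encodes clusterin, also called apolipoprotein J, a secreted chaperone that travels on lipoprotein particles. It was at 2.62, 2.87 and 2.28 FPKM in the astrocyte-labelled libraries at 0, 6 and 12 h, and at 4.01, 4.03 and 4.20 FPKM in the neuron-labelled ones. The cultures did not overlap, but the excess in neuron-labelled libraries was less than 2-fold at each time, at 1.53, 1.40 and 1.84-fold. Apod, which encodes a lipocalin that binds small lipids, was at 0.0113, 0.0110 and 0.0242 FPKM in the astrocyte-labelled libraries and at 0.149, 0.129 and 0.127 FPKM in the neuron-labelled ones. All of these values lie below the median of a library. Of the summed FPKM of the 3 apolipoprotein genes, Apoe made up 66.2%, 65.1% and 58.6% in the astrocyte-labelled libraries at 0, 6 and 12 h. In the neuron-labelled libraries its share was 99.4%, 99.5% and 99.5%.

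The sequences before the starts of Apoe and Fabp7 are shown because these genes had the highest levels of the 10. They are RefSeq windows of build GRCr8, from 250 bases before to 50 bases after a start. Matches to GGGCGG, a GC box, and CCAAT, a box named for its letters, are in capitals on either strand.
Apoe, the middle of 3 starts, chr1:88484650-88484949, minus strand: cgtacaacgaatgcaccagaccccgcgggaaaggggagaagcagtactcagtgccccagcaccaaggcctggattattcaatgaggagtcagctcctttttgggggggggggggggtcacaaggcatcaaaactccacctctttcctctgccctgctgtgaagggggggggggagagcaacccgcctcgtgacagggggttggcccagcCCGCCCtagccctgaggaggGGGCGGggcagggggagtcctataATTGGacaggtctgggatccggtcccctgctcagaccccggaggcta
Fabp7, chr20:37669356-37669655, plus strand: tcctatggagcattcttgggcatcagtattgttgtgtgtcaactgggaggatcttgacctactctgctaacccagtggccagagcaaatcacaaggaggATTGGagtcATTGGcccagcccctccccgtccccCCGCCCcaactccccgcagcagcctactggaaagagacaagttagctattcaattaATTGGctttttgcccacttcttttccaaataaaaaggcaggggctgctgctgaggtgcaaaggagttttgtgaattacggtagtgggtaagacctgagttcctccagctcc
The Apoe window shown held 2 matches to GGGCGG and 1 to CCAAT, and the Fabp7 window 1 and 3. The window of the first Apoe start held no match to either. That of the last start overlaps the window shown and held 2 and 1. Such matches are common: of 33469 windows of this length, 33.1% held GGGCGG and 37.5% held CCAAT. Windows were found for 7 of the 10 genes, 9 in all. TATAAA, found in 14.2% of all windows, matched in the windows of Apod and Cd36. The forkhead-type motif GTAAACA (3.78% of all windows) and the sterol-element type TCACNCCAC (1.12%) had no match in these 9 windows. Both strands were searched, and matches of different motifs did not overlap in the sequences shown.

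Lpl encodes lipoprotein lipase, which splits the triglyceride of lipoproteins. It was at 7.88, 7.94 and 8.69 FPKM in the astrocyte-labelled libraries at 0, 6 and 12 h, and at 0.291, 0.418 and 0.312 FPKM in the neuron-labelled ones. It was the only one of the 10 genes at least 2-fold higher in astrocyte-labelled cultures among those at 1 FPKM or more, by 27.1-fold, 19.01-fold and 27.8-fold at the 3 times. Its neuron-labelled level was below 1 FPKM, and with 1 FPKM added to each value the log2 differences were 2.78, 2.66 and 2.88 in place of 4.76, 4.25 and 4.80. In all 3 astrocyte-labelled libraries Lpl also stood above Apoe, with 1.53, 1.48 and 2.66 times its FPKM.

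Among the receptors, Lrp1, a large endocytic receptor of many ligands including apolipoprotein E, was at 3.39, 2.61 and 2.79 FPKM in the astrocyte-labelled libraries at 0, 6 and 12 h, and at 2.12, 2.05 and 2.26 FPKM in the neuron-labelled ones. The libraries of the cultures did not overlap, but the lowest astrocyte-labelled value exceeded the highest neuron-labelled value by only 0.21 on the log2 scale. Vldlr, a receptor for apolipoprotein E particles and for reelin, was at 0.595, 0.564 and 0.546 FPKM in the astrocyte-labelled libraries and at 2.06, 2.69 and 2.20 FPKM in the neuron-labelled ones. It was 3.45-fold, 4.76-fold and 4.03-fold higher in the neuron-labelled cultures. Lrp1 therefore made up between 82.2% and 85.1% of the summed FPKM of both receptors in astrocyte-labelled libraries, and between 43.3% and 50.8% in neuron-labelled ones. Cd36, a scavenger receptor that also takes up long-chain fatty acids, lay between 0.0046 and 0.0081 FPKM in astrocyte-labelled libraries and between 0.0025 and 0.0046 FPKM in neuron-labelled ones. The cultures overlapped, and these levels are near the bottom of the table.

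Fabp7, the brain fatty acid binding protein of radial glia and astrocytes, was at 4.94, 5.84 and 4.14 FPKM in the astrocyte-labelled libraries at 0, 6 and 12 h. In the neuron-labelled ones it was at 54.6, 71.3 and 65.7 FPKM, which is 11.04-fold, 12.2-fold and 15.9-fold higher. Fabp5, the epidermal form that is also found in neurons and glia, was at 3.87, 3.85 and 3.88 FPKM in the astrocyte-labelled libraries and at 8.91, 13.8 and 13.6 FPKM in the neuron-labelled ones. The excess in neuron-labelled cultures was 2.30-fold in the controls, 3.57-fold at 6 h and 3.50-fold at 12 h. The RefSeq table names 2 Fabp5 pseudogenes, and the deposited table has no rows of those names, so Fabp5 values are uncertain where reads of near-identical copies were counted to it. Fabp3, the heart form, was at 1.54, 2.59 and 1.73 FPKM in the astrocyte-labelled libraries and at 1.95, 2.30 and 1.79 FPKM in the neuron-labelled ones. It was the only one of the 8 genes at 1 FPKM or more whose cultures overlapped.

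The makeup of the family differed accordingly. Fabp7 held 47.8%, 47.5% and 42.4% of the summed FPKM of the 3 genes in the astrocyte-labelled libraries at 0, 6 and 12 h, and 83.4%, 81.6% and 81.0% in the neuron-labelled ones. Fabp5 held between 31.4% and 39.8% in astrocyte-labelled libraries and between 13.6% and 16.8% in neuron-labelled ones. Fabp3 held between 14.9% and 21.1%, against 2.21% to 2.98%.

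**Figure D1:**
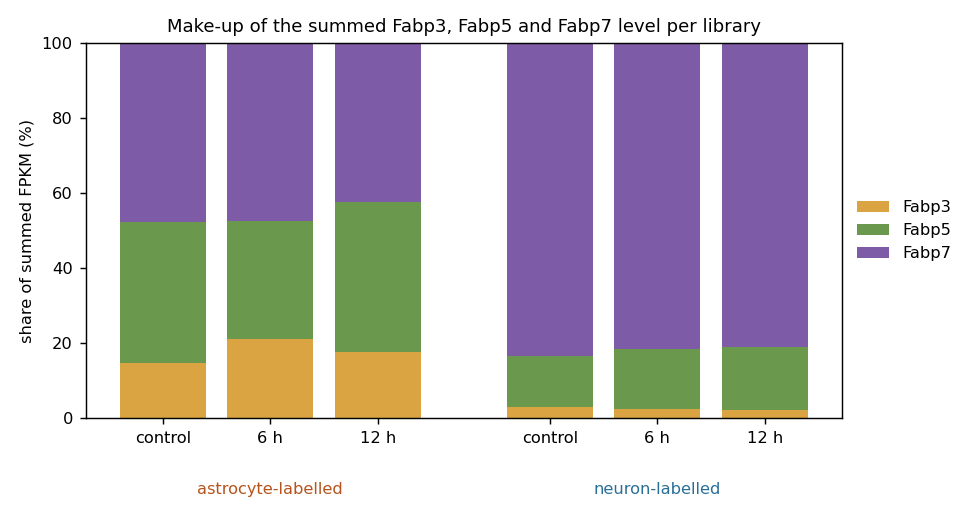
Share of the summed FPKM of Fabp3, Fabp5 and Fabp7 (stacked bars, %) in each of the 6 libraries. Fabp7 fills 42.4% to 47.8% of the bar in astrocyte-labelled libraries and 81.0% to 83.4% in neuron-labelled ones.

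The order of levels within the astrocyte-labelled cultures was led by Lpl, whose libraries lay above those of every other member. Fabp7, Apoe and Fabp5 followed: the Apoe range overlapped that of each of the other two, while every Fabp7 value lay above every Fabp5 value. Lrp1, Clu and Fabp3 came next, with overlap between neighbours, and the lowest Apoe value, 3.26 FPKM at 12 h, was inside the Lrp1 range. Vldlr, Apod and Cd36 followed in that order with no overlap. In the neuron-labelled cultures the order was Apoe, Fabp7, Fabp5 and Clu, each above the next in every library. Vldlr, Lrp1 and Fabp3 overlapped below them, and Lpl, Apod and Cd36 closed the order without overlap.

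**Figure D2:**
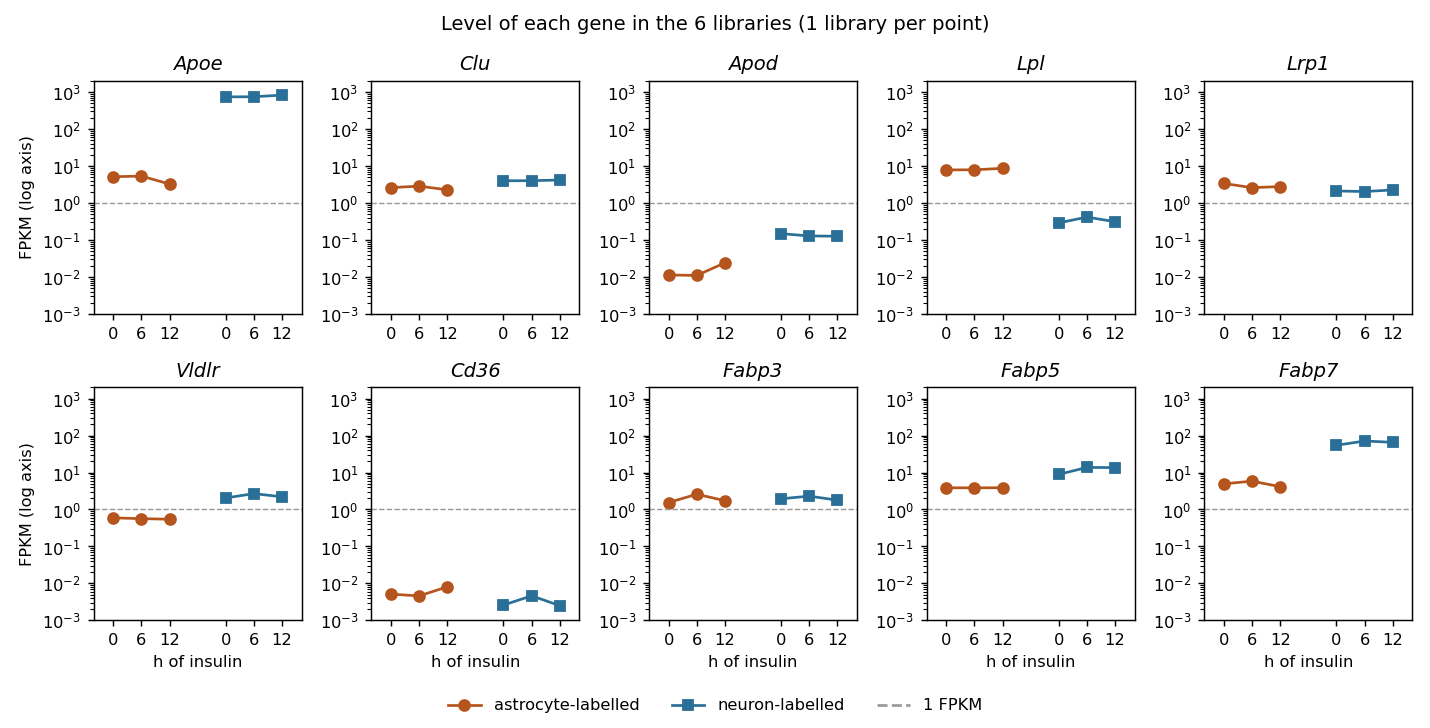
FPKM (log axis) of each gene in the astrocyte-labelled (circles) and neuron-labelled (squares) library at 0, 6 and 12 h, 1 library per point, with a dashed line at 1 FPKM. Apoe is at 3.26 to 5.37 FPKM in astrocyte-labelled libraries and at 745 to 832 FPKM in neuron-labelled ones, and Lpl shows the opposite order.

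Counted over the 8 genes with a level to compare, 1 gene (Lpl) was higher by 2-fold or more in control astrocyte-labelled cells than in control neuron-labelled cells, and 4 (Apoe, Vldlr, Fabp5 and Fabp7) were lower. Vldlr in the controls was no longer past 2-fold on the log2(FPKM + 1) scale, at -0.94 in place of -1.79, and it was not counted with a floor of 5 FPKM. Over all 7146 symbols of this comparison the shares were 18.7% higher and 21.9% lower, 40.6% in all. The same genes passed that size at 6 h, where the shares over all symbols were 16.4% and 22.2%, 38.6% in all, and at 12 h, where they were 15.9% and 21.4%, 37.4% in all. At 1.5-fold, Lrp1 joined Lpl as higher in the controls, beside 27.2% of all symbols, and with no floor on the level Cd36 joined Lpl at 12 h, beside 18.4%. On the lower side, Clu joined the 4 genes at 1.5-fold in the controls and at 12 h, beside 32.3% and 32.5% of all symbols. With no floor, Apod joined them at 0, 6 and 12 h, beside 25.2%, 26.8% and 25.9%. The median difference of the 8 genes, astrocyte-labelled minus neuron-labelled, was -0.91 in the controls, -1.16 at 6 h and -1.34 at 12 h on the log2 scale, beside -0.10, -0.20 and -0.18 over all symbols. Without overlap between the 3 libraries of each culture, 2 genes were higher in astrocyte-labelled cultures (Lpl and Lrp1) and 5 lower (Apoe, Clu, Vldlr, Fabp5 and Fabp7). Lack of overlap was common, with 30.6% of 7754 symbols higher and 41.6% lower, 72.2% in all, so 7 of 8 is near the background. The sums of pericyte and smooth muscle markers and of fibroblast markers were higher with Lpl in the astrocyte-labelled libraries. Those of astrocyte, oligodendrocyte and neuron markers were higher with Apoe and Fabp7 in the neuron-labelled ones. Progenitor markers summed to between 190 and 210 FPKM in astrocyte-labelled libraries, against 39.2 to 83.9 FPKM in neuron-labelled ones. Most of that was Vim, at 176 to 193 FPKM against 23.5 to 46.6 FPKM, whereas Nes was at 13.4 to 16.1 FPKM against 14.4 to 35.5 FPKM. The part of all these markers in these differences was not tested.

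Other genes of lipid transport were compared between the cultures in the same way. Of a list of 89 such genes, 86 were in the table and 25 were at 1 FPKM or more in a control, of which 4 were higher by 2-fold or more in astrocyte-labelled than in neuron-labelled control cells and 9 lower, beside 18.7% and 21.9% of all symbols. The median difference was -0.62 on the log2 scale, beside -0.10 over all symbols. Among receptors, Lrp10, which is related to Lrp1, was at 10.5 FPKM in control astrocyte-labelled cells, against 4.49 FPKM in control neuron-labelled cells. In the same order, Lrp8, the reelin receptor most similar to Vldlr, was at 0.185 and 1.24 FPKM, and Lrp11 at 0.685 and 4.20 FPKM. Scarb2, a lysosomal membrane protein, was at 0.736 and 1.80 FPKM. Lrp10 and Vldlr thus stood in opposite orders, with Lrp10 higher in astrocyte-labelled control cells and Vldlr and Lrp8 lower there. Dab2, an endocytic adaptor of such receptors, was at 1.23 and 0.0527 FPKM.

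Lpl and an inhibitor of the enzyme were also in opposite orders. Angptl4, whose product inactivates lipoprotein lipase, was at 0.226 FPKM in control astrocyte-labelled cells, against 2.15 FPKM in control neuron-labelled cells. In the same order, of the carriers and activating enzymes, Cav1, which forms caveolae, was at 22.7 and 0.0935 FPKM, and Acsl5, an acyl-CoA synthetase, at 1.19 and 0.252 FPKM. Lower in astrocyte-labelled control cells were Dbi, the acyl-CoA binding protein, at 2.93 and 16.0 FPKM, Slc27a1, a fatty acid transport protein, at 0.724 and 4.32 FPKM, and Acsl3, another synthetase, at 0.854 and 2.98 FPKM. The exporter gene Abca2 was at 1.24 and 2.86 FPKM. Srebf1, a transcription factor of lipid synthesis, was at 1.48 and 44.0 FPKM. At 6 h and again at 12 h, 6 of 27 measured list genes were higher by 2-fold or more in astrocyte-labelled cells and 11 lower, beside 16.4% and 22.2% of all symbols at 6 h and 15.9% and 21.4% at 12 h. The median differences of the list were -0.63 and -0.34. Abca1, an exporter that loads apolipoprotein E with lipid, was lower at both times, with 0.580 and 0.638 FPKM in astrocyte-labelled cells at 6 h and 12 h, against 1.47 and 1.59 FPKM in neuron-labelled cells. Scp2, a sterol carrier, was also lower, at 0.377 and 0.363 FPKM against 1.10 and 1.23 FPKM. Lmf2, related to a maturation factor of lipases, was higher at both times, at 5.87 and 5.93 FPKM against 2.10 and 2.06 FPKM. At 6 h alone, Lcat, which esterifies cholesterol on lipoproteins, was past 2-fold at 1.51 FPKM against 0.736 FPKM, and Slc27a3, another fatty acid transport protein, at 7.98 FPKM against 3.88 FPKM. Mesdc2, a receptor chaperone, passed it at 12 h, at 14.7 FPKM against 7.11 FPKM. Dab2 passed it in the controls and at 12 h, and was below 1 FPKM in both libraries at 6 h.

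**Figure D3:**
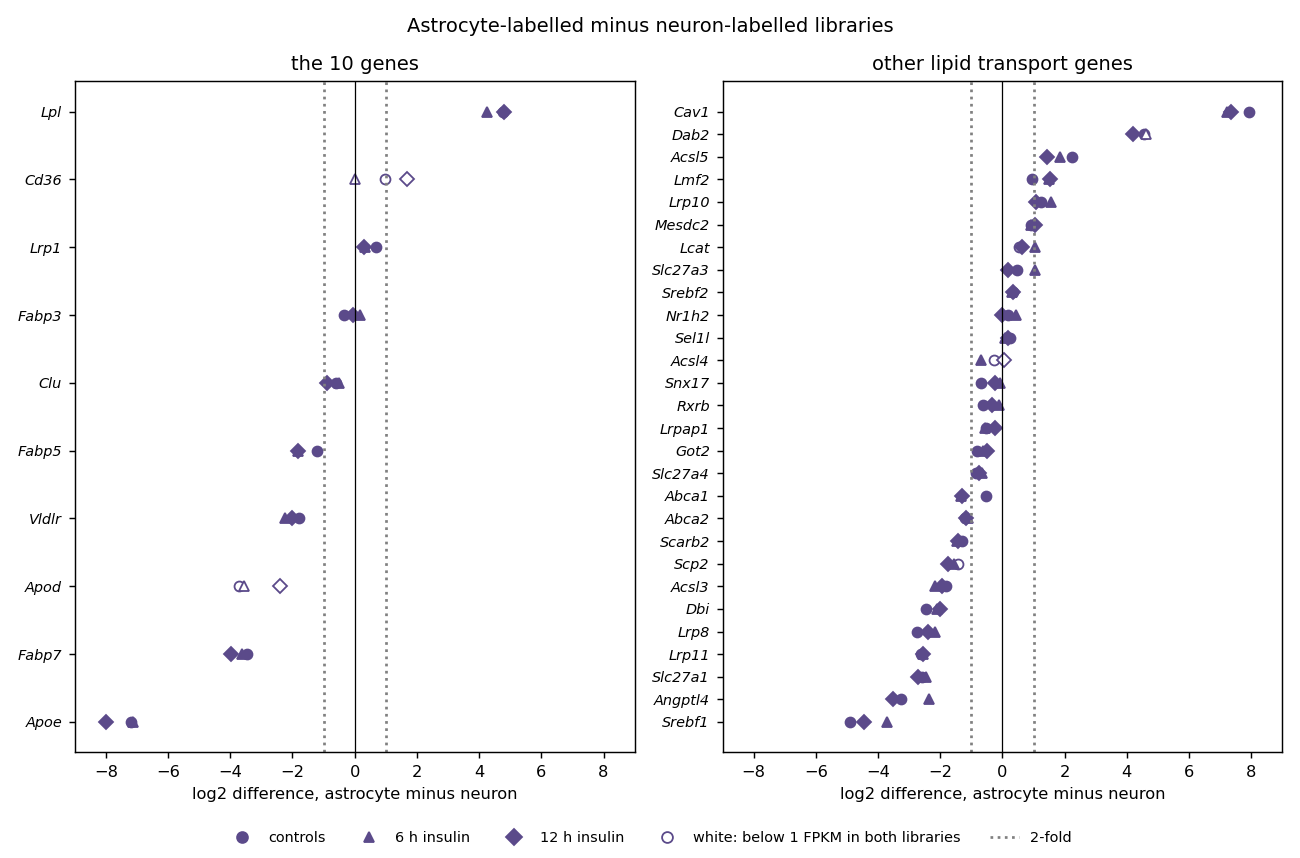
Log2 difference, astrocyte-labelled minus neuron-labelled, at 0 h (circles), 6 h (triangles) and 12 h (diamonds) for the 10 genes (left) and the other lipid transport genes at 1 FPKM or more (right), with white symbols where both libraries were below 1 FPKM and dotted lines at 2-fold. Apoe lies at -7.18, -7.13 and -7.99 and Lpl at 4.76, 4.25 and 4.80.

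After insulin, none of the 7 genes at 1 FPKM or more changed 2-fold at either time in either culture. Lpl was among the 7 in the astrocyte-labelled culture only and Vldlr in the neuron-labelled culture only. Over all symbols in the astrocyte-labelled culture, 1.05% were higher and 0.886% lower at 6 h, 1.93% in all, and 0.611% higher and 0.916% lower at 12 h, 1.53% in all. In the neuron-labelled culture 1.6% were higher and 1.29% lower at 6 h, 2.89% in all, and 2.39% higher and 1.45% lower at 12 h, 3.84% in all. A count of 0 of 7 is near these shares. The median of all symbols was itself above 0, at 0.09 and 0.10 on the log2 scale at 6 h and 12 h in the astrocyte-labelled culture and 0.14 at both times in the neuron-labelled one. Differences are therefore also given relative to that median. The 6 h and 12 h differences of a culture share its control library. For scale, the 12 h and 6 h libraries of a culture differed by a median absolute 0.14 over all symbols in the astrocyte-labelled culture and 0.12 in the neuron-labelled one. The median difference of the 7 genes was 0.06 at 6 h and -0.20 at 12 h in the astrocyte-labelled culture, and 0.23 and 0.10 in the neuron-labelled culture. At 1.5-fold, 1 gene passed in each comparison. In the astrocyte-labelled culture, Fabp3 passed as higher at 6 h (4.56% of all symbols) and Apoe as lower at 12 h (2.35%). In the neuron-labelled culture, Fabp5 passed as higher at both times (8.28% and 10.7%). Relative to the median of all symbols, Fabp5 was at 0.49 and 0.47 there, below 1.5-fold at both times.

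Apoe in the astrocyte-labelled culture had the lowest insulin difference of the 7 genes in either culture, with 3.26 FPKM after 12 h of insulin against 5.15 FPKM in the control. The log2 difference was -0.66, or -0.76 relative to all symbols, and 1.88% of symbols were at least as low. At 6 h its difference was 0.06, or -0.03 relative to all symbols. Of the astrocyte markers, Glul, glutamine synthetase, was at 5.32, 4.20 and 3.29 FPKM at 0, 6 and 12 h and Aldoc at 6.02, 6.25 and 4.74 FPKM, whereas Gfap was at 6.23, 12.4 and 8.45 FPKM. The 12 markers summed to 55.3, 62.0 and 62.6 FPKM. Fgfr3, the largest of them, was at 22.1, 24.3 and 31.0 FPKM, while S100b was at 1.22, 1.24 and 0.944 FPKM. Gja1 was at 11.9, 10.8 and 11.7 FPKM and Sox9 at 2.34, 2.37 and 2.20 FPKM. The other astrocyte markers were below 1 FPKM. Pericyte and smooth muscle markers summed to 425, 438 and 504 FPKM, most of it Tagln, at 353, 372 and 417 FPKM. The part of these markers in the Apoe value was not tested. In the neuron-labelled culture the Apoe difference was 0.01 at 6 h and 0.16 at 12 h, or -0.12 and 0.02 relative to all symbols.

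The other apolipoproteins and the lipase showed small differences or low levels. Clu differed by 0.13 at 6 h and -0.20 at 12 h in the astrocyte-labelled culture, or 0.04 and -0.30 relative to all symbols. Clu in the neuron-labelled culture differed by 0.01 and 0.07, or -0.13 and -0.07 relative to all symbols. Lpl in the astrocyte-labelled culture differed by 0.01 and 0.14, or -0.08 and 0.04 relative to all symbols, the narrowest range of any gene there but Fabp5 and Vldlr. Apod was at 0.0242 FPKM after 12 h of insulin in the astrocyte-labelled culture, against 0.0113 FPKM in its control. This passed 2-fold only with no floor on the level, beside 9% of all symbols.

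Lrp1 was below the control at both times in the astrocyte-labelled culture, by a log2 difference of -0.38 at 6 h and -0.28 at 12 h. Relative to all symbols these were -0.47 and -0.38, with 6.30% and 8.50% of symbols at least as low. Lrp1 in the neuron-labelled culture differed by -0.05 and 0.09, or -0.19 and -0.05 relative to all symbols. Vldlr in the neuron-labelled culture differed by 0.39 at 6 h and 0.10 at 12 h, or 0.25 and -0.04 relative to all symbols.

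Of the binding proteins, Fabp3 had the highest difference after insulin in the astrocyte-labelled culture, with 2.59 FPKM after 6 h of insulin against 1.54 FPKM in the control. That difference was 0.75, or 0.66 relative to all symbols, with 2.35% of symbols at least as high. At 12 h it was 0.17, or 0.06 relative to all symbols. In the neuron-labelled culture Fabp3 differed by 0.23 at 6 h and -0.13 at 12 h, or 0.10 and -0.27 relative to all symbols. In both cultures the 6 h library was the highest of the 3.

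Fabp5 differed in the neuron-labelled culture at both times, with 13.8 FPKM at 6 h and 13.6 FPKM at 12 h against 8.91 FPKM in the control. The differences were 0.63 and 0.61, or 0.49 and 0.47 relative to all symbols, and 6.69% and 9.86% of symbols were at least as high. In the astrocyte-labelled culture its 3 libraries lay within 0.01 of each other on the log2 scale, and relative to all symbols its difference was -0.10 at both times. In the neuron-labelled libraries at 0, 6 and 12 h, astrocyte markers summed to 373, 388 and 349 FPKM. Among them Gfap was at 96.7, 109 and 134 FPKM, whereas Glul was at 106, 106 and 77.7 FPKM. Aldoc was at 73.9, 76.4 and 53.6 FPKM, Gja1 at 22.6, 21.3 and 16.1 FPKM and S100b at 28.5, 26.0 and 22.5 FPKM. Aqp4 was at 26.6, 29.4 and 26.4 FPKM, Sox9 at 3.86, 3.37 and 4.83 FPKM and Fgfr3 at 3.70, 4.47 and 4.35 FPKM. Neuron markers summed to 71.8, 73.8 and 61.5 FPKM. Progenitor markers summed to 39.2, 48.2 and 83.9 FPKM, mostly Vim (23.5, 26.2 and 46.6 FPKM) and Nes (14.4, 20.3 and 35.5 FPKM). Microglia markers summed to 0.342, 0.593 and 0.979 FPKM, and none of them reached 1 FPKM. The part of all these markers in the Fabp5 value was not tested. Fabp7 differed by 0.39 and 0.27 in the neuron-labelled culture, or 0.25 and 0.12 relative to all symbols, and by 0.24 and -0.26 in the astrocyte-labelled culture, or 0.15 and -0.36.

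**Figure D4:**
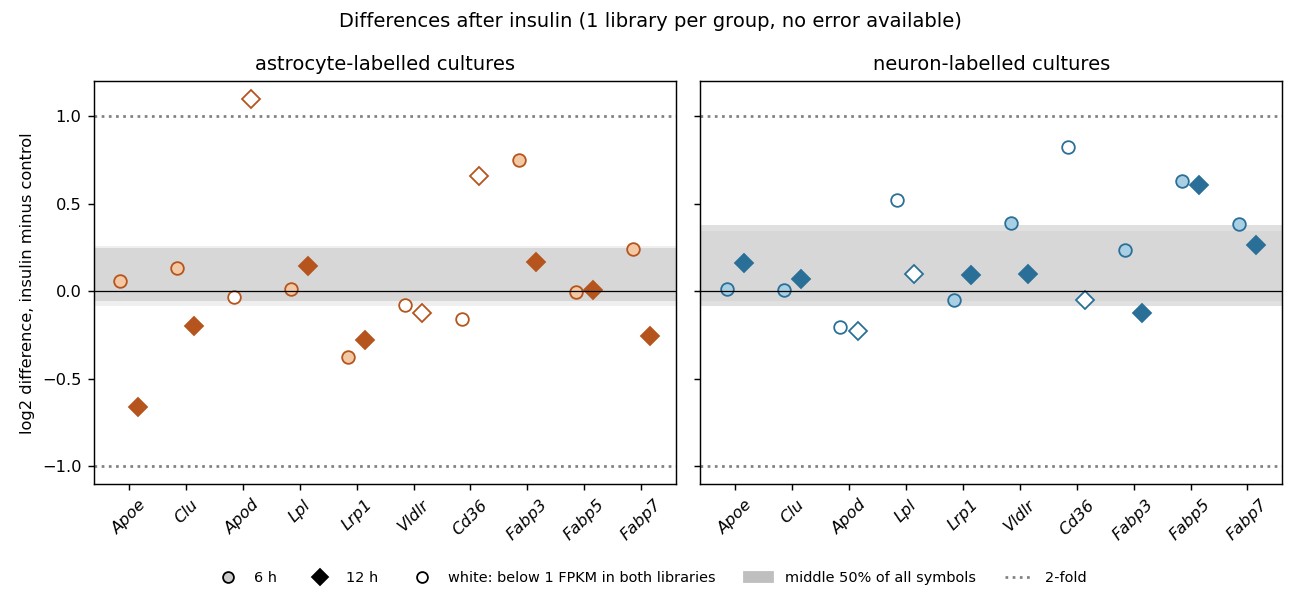
Log2 difference, insulin minus control, at 6 h (circles) and 12 h (diamonds) in astrocyte-labelled (left) and neuron-labelled (right) cultures, 1 library per group. Grey bands hold the middle 50% of all symbols at each time, dotted lines mark 2-fold, and white symbols mark genes below 1 FPKM in both libraries; Apoe at 12 h (-0.66) and Fabp3 at 6 h (0.75) lie farthest out on the left among filled symbols, and Fabp5 (0.63 and 0.61) on the right.

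Of the 89 other genes of lipid transport, 19 were measured at each time in the astrocyte-labelled culture, 24 at 6 h in the neuron-labelled culture and 23 at 12 h, and none changed 2-fold. Of all symbols, 1.93% and 1.53% did so in the astrocyte-labelled culture at 6 h and 12 h and 2.89% and 3.84% in the neuron-labelled culture, so counts of 0 are near the background. Their median differences were 0.12 and 0.07 in the astrocyte-labelled culture at 6 h and 12 h, beside 0.09 and 0.10 over all symbols. In the neuron-labelled culture they were 0.00 and -0.06, beside 0.14.

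Genes with the most similar profiles were sought for the 4 genes at 5 FPKM or more in a library, by the root mean square difference of log2 values over the 6 libraries after each gene's own mean was taken off. The profiles are dominated by the difference between the cultures, which all 6 values share. Nearest to Apoe were Efnb3 (0.21), Cdkn1c (0.31) and Nat8l (0.31), and Efnb3 was at 0.0700 FPKM in control astrocyte-labelled cells and 13.8 FPKM in control neuron-labelled cells. Nearest to Fabp7 were Gpm6b (0.14), Mex3b (0.14) and Gprasp1 (0.19), to Lpl Tgfb1i1 (0.07), S1pr2 (0.08) and Vcl (0.13), and to Fabp5 Rnf11 (0.09), ND3 (0.10) and Eif1b (0.11). None of these 4 genes was among the nearest of another.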

How the data were processed

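The values, as deposited by the authors, are log2 FPKM, quantile-normalised across the 6 libraries, per the file's name and its equal quantiles. Per the labels' protocols, total RNA was ribosome-depleted and stranded libraries were made. Partek 6.5, bcl2fastq 2.17.1.14 and the build Rnor 6.0 are named in the submitters' processing notes. The aligner is not given in the sources used here, nor is the annotation. As the table holds no counts, depth is unknown and no interval is given. Base 2 was settled from Rn45s, whose 13.67 would, as a natural log and at 8.679 kb, exceed the whole 1000000 fragments of the unit.

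Columns were matched to samples by their description labels. Repeated symbols kept the row of higher mean, blanks stayed blank, and per-sample columns left unused numbered 0. With 1 library a group no test was made. Differences were taken on the deposited log2 scale with no pseudocount, over symbols that had a value in each of the libraries compared, 1 FPKM or more in one of them, and counted from a size of 1, which is 2-fold. The counting was tested on simulated data. Python 3.11.15 and pandas 2.3.3 were used. Alternatives were no floor, a floor of 5 FPKM, log2(FPKM + 1), centring on all symbols or on those at 5 FPKM or more, and 1.5-fold.

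The genes and lists were chosen with earlier results of these data known. All 10 genes are named. From the lipid transport list 1 further gene was left out and is not reported here. Of the other lipid transport genes, those past 2-fold are named, between cultures at most 4 a direction in each role. The 3 nearest profiles were taken among symbols that are not locus, small RNA or pseudogene names.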

Additional observations from a re-analysis of the deposited data

Results flagged for a closer look

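Fabp5 lay on opposite sides of the median of all symbols in the cultures. Relative to that median its difference after insulin was -0.10 at 6 h and -0.10 at 12 h in the astrocyte-labelled culture, and 0.49 and 0.47 in the neuron-labelled culture. With 1 library a group, this difference between the cultures was not tested. Without centring, the astrocyte-labelled values were -0.01 and 0.00.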

How the results depend on the processing

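Counts at 2-fold stayed within 1.5 times under 77 of the 84 alternatives and moved under 7. The counts after insulin were all 0, so most of the 77 are a 0 that stayed 0 and say little about stability. A count of 4 that became 3 or 5 also stayed within 1.5 times, as for the genes lower in astrocyte-labelled controls. With a 1.5-fold size, 1 gene (Fabp3) counted as higher in the astrocyte-labelled culture at 6 h, beside 4.56% of all symbols, and 1 (Apoe) as lower at 12 h, beside 2.35%. In the neuron-labelled culture 1 gene (Fabp5) counted as higher at 6 h, beside 8.28%, and 1 (Fabp5) at 12 h, beside 10.7%. Relative to the median of all symbols, Fabp5 was below 1.5-fold there at both times. In the astrocyte-labelled control 2 genes (Lpl and Lrp1) counted as higher, beside 27.2%. With no floor, 1 gene (Apod) counted as higher at 12 h in the astrocyte-labelled culture, beside 9% of all symbols, and 2 (Lpl and Cd36) were higher in the astrocyte-labelled than the neuron-labelled library at 12 h, beside 18.4%. Of single-gene differences, 99 moved by 0.1 or more on the log2 scale and 132 by less. Those 132 include 52 with no floor and 23 with a floor of 5 FPKM. These could not move, because a floor only decides whether a gene is counted. On the log2(FPKM + 1) scale, Lpl between the cultures was at 2.78, 2.66 and 2.88 at 0, 6 and 12 h, and Vldlr at -0.94, -1.24 and -1.05, which ended its 2-fold call in the controls. No difference past 2-fold turned its direction. Centring on all symbols, or on those at 5 FPKM or more, turned the sign of 9 of the 52 differences of these genes, all below 2-fold. No paired analysis was possible because each group has 1 library. No library could be left out for the same reason. The unknown depth limits what can be said of Apod and Cd36 most, as both were below 1 FPKM in all 6 libraries.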

Other observations

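The values of 3 more lipid transport genes are given here, chosen after they were seen. Lcat, which esterifies cholesterol on lipoproteins, was at 0.793, 1.51 and 1.37 FPKM in the astrocyte-labelled libraries at 0, 6 and 12 h, and at 0.553, 0.736 and 0.890 FPKM in the neuron-labelled ones. Abca1, which exports cholesterol to apolipoprotein E, was at 0.977, 0.580 and 0.638 FPKM in the astrocyte-labelled libraries at 0, 6 and 12 h, and at 1.42, 1.47 and 1.59 FPKM in the neuron-labelled ones. Fabp4, the adipocyte fatty acid binding protein gene, was blank in all 3 astrocyte-labelled libraries and at 0.0250, 0.0545 and 0.106 FPKM in the neuron-labelled libraries at 0, 6 and 12 h. All these Fabp4 values are below the floor of 1 FPKM, as are the astrocyte-labelled Abca1 values and every Lcat value but 1.51 and 1.37 FPKM. Abca1 therefore entered no insulin comparison in the astrocyte-labelled culture. With no floor, 13.4% and 14.3% of all symbols were at least 2-fold higher at 6 h and 12 h in the neuron-labelled culture.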
